A study of Arabidopsis thaliana with 54 samples.

Results

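The genes described here belong to the families that build and acetylate the matrix polymers of the plant cell wall: cellulose synthase-like (CSL) genes and trichome birefringence-like (TBL) genes of Arabidopsis thaliana. They were taken by symbol, as array features that carry exactly 1 gene whose name is TBL, CSLA to CSLG or CESA followed by a number. Of the 16746 features with 1 gene, 31 met this rule, 23 TBL and 8 CSL genes, each with a single feature. RefSeq lists 74 genes with such symbols in assembly TAIR10.1, and the other 43, among them all 7 CESA genes, were not analysed here.

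Col-0 seedlings were moved into closed glass vessels when 1 day old and harvested after 1.5, 13.5 and 25.5 h. They received 1 µl per litre of ethylene in control light, green-filtered shade, or control light alone. Shade had a photosynthetic photon flux of 40 µmol per square metre and second, blue light of 3 and a red to far-red ratio of 0.45, against 140, 29 and 2.1 in ethylene and control vessels. Hypocotyls were cut from cotyledons, which kept the shoot apex, and the roots were thrown away. This gave 18 groups of 3 arrays: ethylene, shade and control hypocotyls and ethylene, shade and control cotyledons at each harvest, all wild type. The 13.5 h harvest fell in the night, for every treatment. Each array held RNA of 2 technical replicates of 25 seedlings, mixed, and the 3 arrays of a group came from 3 independent experiments.

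Xyloglucan, the main hemicellulose of the growing primary wall, has a glucan backbone made in the Golgi by CSLC proteins. CSLA proteins make the backbone of mannans, and CSLD proteins act in tip-growing cells such as root hairs, while no polymer is firmly assigned to CSLB. Many TBL proteins are Golgi O-acetyltransferases: TBL23 to TBL26 acetylate mannan, and TBL28 and TBL30 to TBL34 belong to the group that acetylates xylan. Hypocotyls elongate in shade and, in light, under ethylene, and elongation needs new wall material. The 31 proteins are described below by these roles. No role is given for the other TBL genes.

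All values are RMA levels on the log2 scale, and changes are differences of group means from a fit of all 54 arrays with limma, given with standard errors and with p adjusted over the 17504 features that carry a gene. A gene was called changed at an adjusted p below 0.05. Across features, arrays from the same group had correlations of 0.966 to 0.983, and the median SD of the 31 genes within groups was 0.180. The 2 dimmest genes, CSLA01 and TBL15, had mean levels under 2.37, where the dimmest features of the array lie. The arrays held whole organs, so fewer cells of a type and less RNA per cell cannot be told apart. Levels of different genes are not set against each other, because each has its own probes.

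Signs of other tissue stood in some arrays. The mean level of 9 measured root genes had a median of 5.97 over hypocotyl arrays, but was 8.91 and 8.97 on replicates 1 and 3 of the 1.5 h control hypocotyl, 9.06 and 8.27 on replicates 1 and 3 of the 13.5 h control hypocotyl, and 7.56 on replicate 1 of the 13.5 h ethylene hypocotyl. These 5 arrays were left out in a second fit, which keeps 1 control hypocotyl array, replicate 2, at 1.5 h and at 13.5 h and assumes that it varies like the other groups. Hypocotyl values without them are given beside those results at 1.5 and 13.5 h whose call is lost or whose size moves clearly. A looser rule added later marked 2 further arrays. They were replicate 3 of the 1.5 h ethylene hypocotyl, at 7.18, and replicate 3 of the 13.5 h shaded cotyledon, at 6.88. The median of the root genes over cotyledon arrays was 5.41. Among 3 photosynthesis genes the mean level was 9.84 to 10.10 in ethylene hypocotyls at 25.5 h, against 10.74 to 10.84 in control hypocotyls. UFO and CLV3, markers of the shoot meristem, averaged 1.98 to 2.63 on the cotyledon arrays, near the bottom of the array's range, so the shoot apex did not show by these 2 genes. Of the 12 xylem markers listed, none was matched to a feature used here.

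More wall genes were called in the hypocotyl than in the cotyledon, as was so for all features. Under ethylene, 3, 8 and 20 of the 31 genes were called at 1.5, 13.5 and 25.5 h in the hypocotyl, where 3.03%, 12% and 22.9% of all features were called. The 20 genes at 25.5 h are 64.5% of the list. Rises numbered 1, 5 and 16, against 1.38%, 6.0% and 11.8% of all features, and falls 2, 3 and 4, against 1.65%, 6.04% and 11.1%. At 25.5 h the median change was 0.48 over the 31 genes and -0.02 over all features.

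In shaded hypocotyls 7, 11 and 11 genes were called at the 3 times, against 12.4%, 10.8% and 15.3% of all features, with 3, 10 and 9 rises (1.96%, 6.10% and 7.82% of all features) and 4, 1 and 2 falls (10.5%, 4.70% and 7.48%). The median change at 13.5 h was 0.25 over the 31 genes and -0.02 over all features. The 1.5 h control group held marked arrays. Without the marked arrays, which leaves 1 control array, all 7 changes kept their direction. They were -2.06 for CSLB03, -0.89 for TBL23, -0.73 for TBL31, -0.39 for TBL16, 0.94 for TBL34, 0.46 for CSLC12 and 0.45 for CSLC04. With all arrays they were -1.98, -0.80, -0.75, -0.43, 0.77, 0.55 and 0.58, in the same order. In cotyledons ethylene gave 2, 3 and 4 calls (background 1.01%, 1.61% and 5.20%), of which 0, 1 and 1 were rises (background 0.531%, 0.948% and 2.84%) and 2, 2 and 3 falls (background 0.474%, 0.663% and 2.36%). Cotyledons in shade gave 1, 4 and 3 calls (background 0.526%, 4.54% and 8.81%), of which 0, 4 and 2 were rises (background 0.206%, 2.05% and 4.91%) and 1, 0 and 1 falls (background 0.320%, 2.50% and 3.90%). Over the 12 comparisons, 60 of 186 values of the wall genes were called in the hypocotyl (32.3%) and 17 of 186 in the cotyledon (9.14%). Over all features the shares were 12.8% in the hypocotyl and 3.62% in the cotyledon, so the lean to the hypocotyl is not particular to the wall genes. All 27 genes with any call had at least 1 in the hypocotyl, and 8 of them also had 1 in the cotyledon. The share of all features with any call was not computed, so these counts have no background beside them.

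The split between rises and falls depended on scaling in some comparisons. Each array was centred on 10 reference genes. The median of all features in ethylene hypocotyls was then -0.11 at 13.5 h and -0.18 at 25.5 h. At 13.5 h this gave 5 rises and 5 falls, beside 712 rises and 1554 falls among all 17504 features. The 25.5 h counts were 12 rises and 6 falls, beside 1396 and 3107. In shaded hypocotyls the same centring gave 6 rises and 2 falls at 1.5 h, beside 482 and 990 among all features. At 25.5 h it gave 7 rises and 3 falls, beside 924 and 2293. Quantile normalization within tissue gave 5 rises and 1 fall in shaded hypocotyls at 1.5 h, beside 795 and 696. In shaded cotyledons at 25.5 h reference centring gave 1 rise and 1 fall, against 2 and 1. All features then had 538 rises and 1024 falls.

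**Figure D1:**
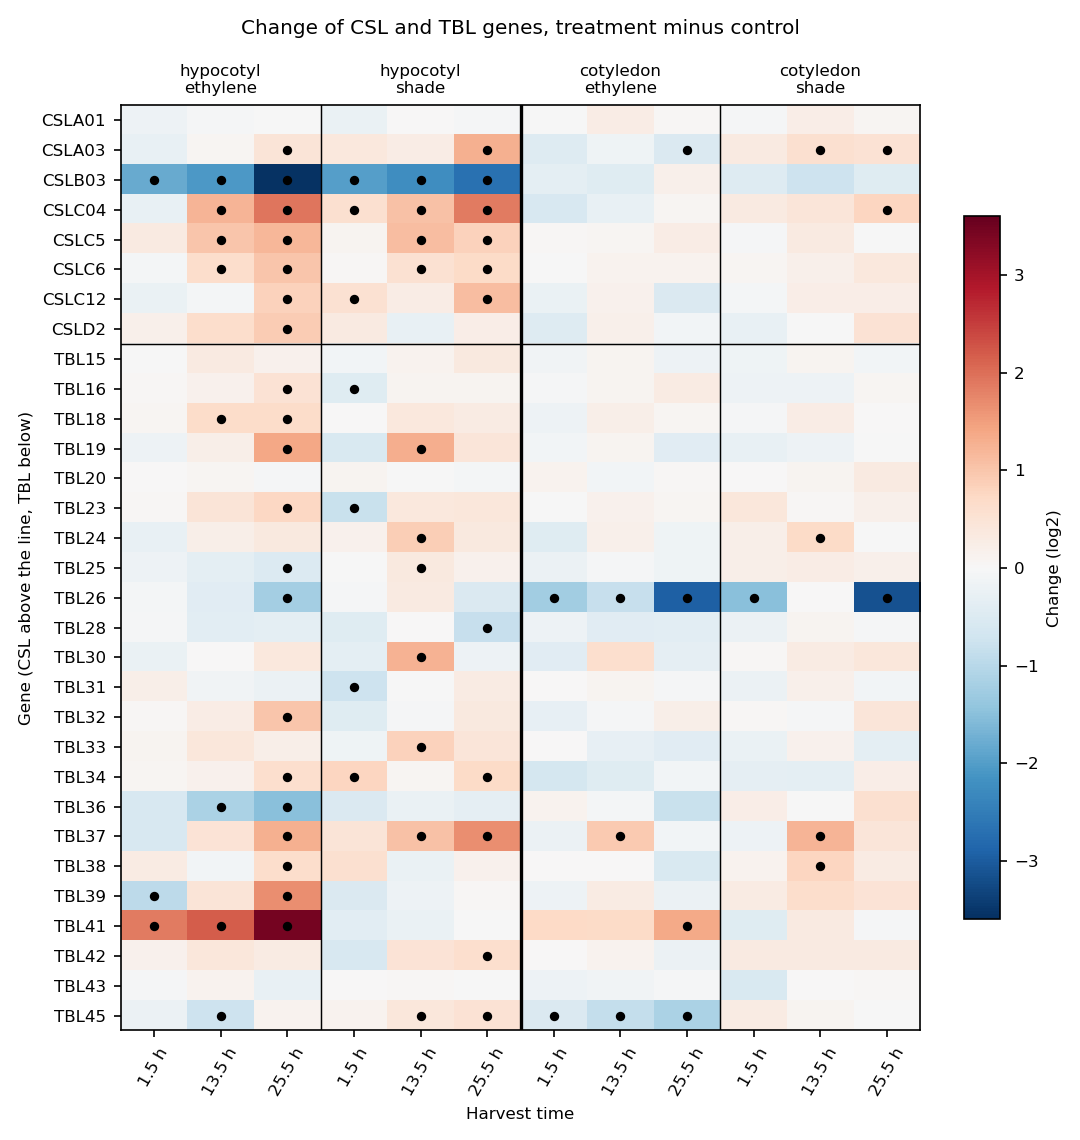
Change of each of the 31 genes (rows) in the 12 comparisons of a treatment with its control (columns), as log2 differences of group means of 3 arrays, with a dot where the adjusted p was below 0.05. The hypocotyl columns hold 60 dots and the cotyledon columns 17, and the deepest colours are CSLB03 and TBL41 in the hypocotyl and TBL26 in the cotyledon.

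The xyloglucan backbone genes CSLC04, CSLC5, CSLC6 and CSLC12 all rose in the hypocotyl at 25.5 h, under ethylene and in shade. Their median change was 1.09 under ethylene and 0.97 in shade. At 13.5 h the first 3 of them rose in both treatments, and CSLC12 had changes of -0.07 under ethylene and 0.26 in shade, neither called.

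CSLC04 showed the largest changes of this group. At 25.5 h it read 11.05, 11.26 and 11.06 in ethylene hypocotyls and 11.08, 11.17 and 10.96 in shaded ones, against 9.48, 9.23 and 8.91 in control hypocotyls. Every treated array lay above every control array, by well over the spread of the 3 arrays of any of these groups. The change was 1.92 ± 0.17 under ethylene (SE, 3.77-fold, adjusted p = 5.95e-12) and 1.87 ± 0.17 in shade (3.64-fold, adjusted p = 3.35e-11).

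At 13.5 h CSLC04 read 10.65, 10.93 and 10.97 under ethylene and 10.69, 10.69 and 10.62 in shade, against 9.56, 9.73 and 9.57 in control. The groups again did not overlap, with changes of 1.23 and 1.05. At 1.5 h it read 9.70, 10.25 and 10.21 under ethylene, which overlapped 10.08, 10.46 and 10.46 in control, with a change of -0.28 that was not called. Shade at 1.5 h gave 10.87, 10.99 and 10.86 and a change of 0.58 ± 0.17 (adjusted p = 0.0207). That early call was lost without control replicate 1 (0.45, adjusted p = 0.135), without shade replicate 2 (0.54, adjusted p = 0.0729) and without the marked arrays (0.45, adjusted p = 0.421).

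Over time, CSLC04 in ethylene hypocotyls averaged 10.05 ± 0.31, 10.85 ± 0.17 and 11.12 ± 0.12 at 1.5, 13.5 and 25.5 h, and in shaded hypocotyls 10.91 ± 0.07, 10.67 ± 0.04 and 11.07 ± 0.11 (SD, n = 3 each). Control hypocotyls averaged 10.33 ± 0.22, 9.62 ± 0.10 and 9.21 ± 0.28, a change of -1.12 ± 0.17 at the last harvest relative to the first. The control level thus fell with time, while both treated means at 25.5 h were above those at 1.5 h.

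CSLC5 read 8.77, 8.70 and 8.82 under ethylene and 8.23, 8.53 and 8.47 in shade at 25.5 h, against 7.72, 7.52 and 7.51 in control hypocotyls, with changes of 1.18 ± 0.13 and 0.83 ± 0.13. No treated array reached down to a control array. At 13.5 h the changes were 1.01 and 1.10, also without overlap, and 1.35 and 1.39 without the marked arrays.

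CSLC6 read 7.56, 7.81 and 7.72 under ethylene and 7.42, 7.42 and 7.32 in shade at 25.5 h, against 6.78, 6.72 and 6.58 in control, with changes of 1.00 ± 0.13 and 0.69 ± 0.13. These groups too stood apart. At 13.5 h its control arrays read 7.21, 6.48 and 7.12, so replicate 2 lay well below the other two. The 13.5 h changes of 0.62 and 0.56 became 0.39 and 0.33 without that array, and the shade call was then lost (adjusted p = 0.11), as it was without shade replicate 1 (0.45, adjusted p = 0.0581). Without the marked arrays, which leaves that low replicate as the lone control, they were 1.10 and 1.02.

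CSLC12 read 4.95, 5.08 and 4.90 under ethylene and 5.07, 5.66 and 5.01 in shade at 25.5 h, against 4.22, 4.10 and 4.09 in control, with changes of 0.84 ± 0.19 and 1.11 ± 0.19. Both treated groups lay clear of the control group. Its shade change at 1.5 h, 0.55 ± 0.19 (adjusted p = 0.0432), lost the call without any of 5 of the 6 arrays compared, all but shade replicate 1, with values of 0.47 to 0.60 and adjusted p between 0.0576 and 0.17, and without the marked arrays (0.46, adjusted p = 0.382).

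In cotyledons 1 of the 4 CSLC genes was called in 1 of the 6 comparisons. CSLC04 read 10.24, 9.88 and 9.91 in shaded cotyledons at 25.5 h, against 9.28, 9.23 and 9.16 in control cotyledons, a change of 0.79 ± 0.17 (adjusted p = 0.00165). The shaded arrays were all higher. CSLC12 changed by -0.53 in ethylene cotyledons at 25.5 h (adjusted p = 0.0986), opposite in sign to its rise in the hypocotyl.

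Across the 18 group means, pairs of the 4 genes correlated at 0.53 to 0.85, highest for CSLC5 with CSLC04. Over the 9 hypocotyl groups the range was 0.41 to 0.87 and over the 9 cotyledon groups -0.14 to 0.72. The points share arrays, treatments and harvest times, and the values are descriptions. The remaining member of the family is listed on the array as ATCSLC08, outside the naming rule. It rose in shaded hypocotyls by 0.60 ± 0.18 at 13.5 h and 0.53 ± 0.18 at 25.5 h and was not called under ethylene.

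**Figure D2:**
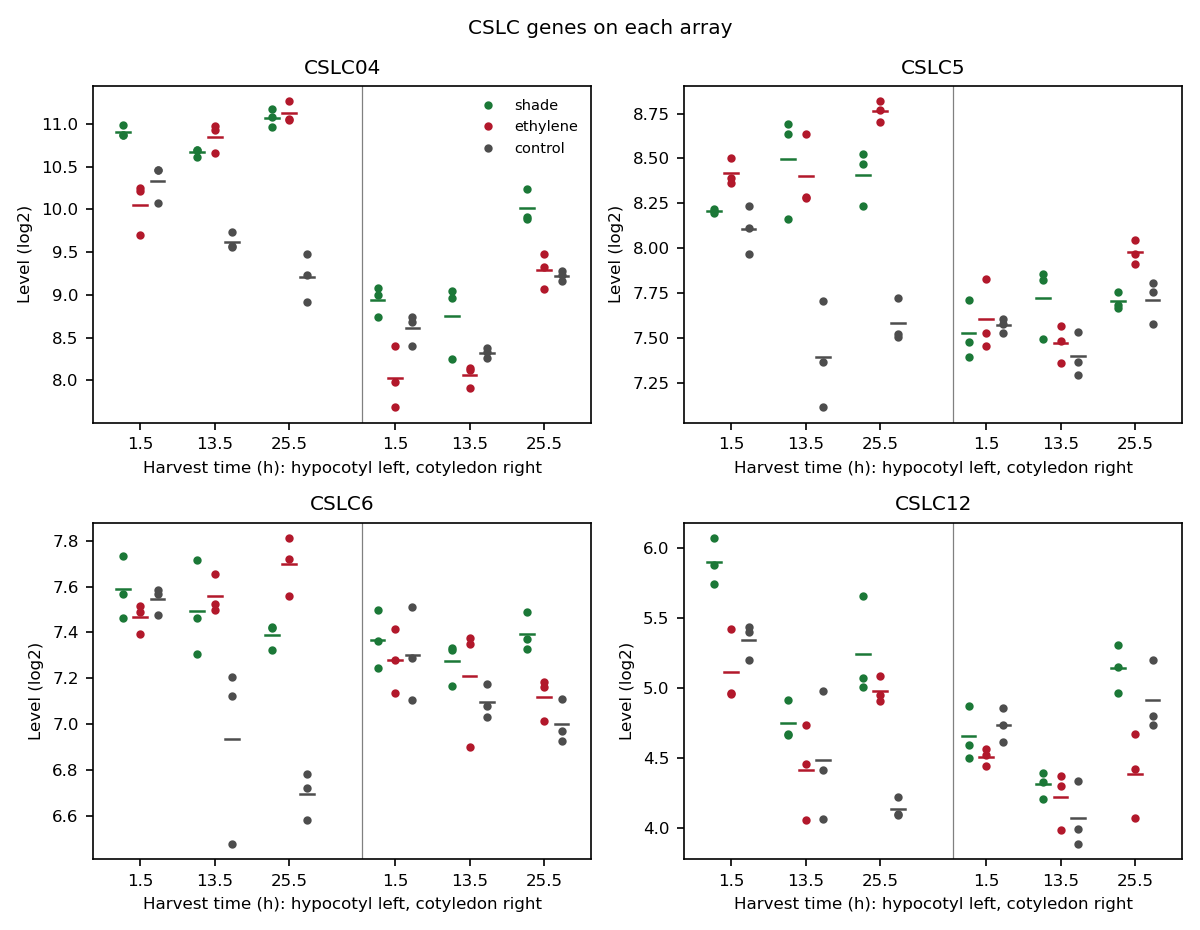
Level of CSLC04, CSLC5, CSLC6 and CSLC12 (log2, vertical axis) on each of the 54 arrays by harvest time (hours, horizontal axis), with hypocotyls left and cotyledons right of the grey line. Dots are arrays and bars are means of 3. In hypocotyls at 25.5 h all treated arrays of each gene lie above all control arrays, where CSLC04 reads 10.96 to 11.26 with treatment and 8.91 to 9.48 in control.

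Of the mannan backbone genes, CSLA03 responded and CSLA01 did not pass the test anywhere. CSLA03 read 6.62, 6.90 and 6.71 in shaded hypocotyls at 25.5 h, against 5.25, 5.48 and 5.64 in control hypocotyls. The lowest shaded array lay above the highest control array, with a change of 1.28 ± 0.14 (adjusted p = 2.54e-09). Shade also raised it in cotyledons, by 0.57 at 13.5 h and 0.53 at 25.5 h, whereas ethylene cotyledons at 25.5 h had a change of -0.53. Ethylene hypocotyls at 25.5 h read 5.90, 5.88 and 6.03, a change of 0.48.

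The 4 smaller CSLA03 calls were each lost without some array. The ethylene hypocotyl call was lost without control replicate 1 (0.37, adjusted p = 0.0896) and when centred on the reference genes (0.31, adjusted p = 0.123), and the ethylene cotyledon call without control replicate 2 (-0.42, adjusted p = 0.149) or any ethylene replicate (-0.53 to -0.51, adjusted p between 0.0505 and 0.0557). In shaded cotyledons the 13.5 h call was lost without control replicate 3 (0.46, adjusted p = 0.0933) or shade replicate 1 (0.48, adjusted p = 0.0893), and the 25.5 h call without control replicate 1 (0.43, adjusted p = 0.0977) and with reference centring (0.44, adjusted p = 0.0548). CSLA01 stayed between -0.23 and 0.26 in all 12 comparisons and lay at 1.77 to 2.61 on all arrays.

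The mannan acetyltransferase genes TBL23, TBL24, TBL25 and TBL26 did not move together. TBL26 is a cotyledon gene in these data and fell there under both treatments. At 25.5 h it read 6.21, 4.89 and 5.79 in ethylene cotyledons and 5.41, 5.73 and 5.14 in shaded ones, against 8.81, 8.62 and 8.24 in control cotyledons. The lowest control array, at 8.24, lay well above the highest treated one, at 6.21. The changes were -2.93 ± 0.22 under ethylene (7.62-fold lower, adjusted p = 5.78e-13) and -3.13 ± 0.22 in shade (8.76-fold lower, adjusted p = 1.81e-13).

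At 1.5 h TBL26 read 4.93, 4.97 and 4.91 in ethylene cotyledons and 4.74, 4.63 and 4.68 in shaded ones, against 6.32, 6.46 and 5.78 in control cotyledons. The changes of -1.25 and -1.50 were thus present at the first harvest, again without overlap. In the night, at 13.5 h, ethylene cotyledons read 3.94, 3.89 and 3.87 and shaded ones 4.99, 4.76 and 4.49, against 4.84, 4.81 and 4.59 in control. Shade then matched control within its spread (change 0.00, 95% interval -0.43 to 0.44), and the ethylene change was -0.84 ± 0.22 (adjusted p = 0.026). That ethylene call was lost without any of 5 of the 6 arrays, all but control replicate 3 (-0.86 to -0.80, adjusted p between 0.0761 and 0.126).

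Control cotyledons themselves swung in TBL26, with means of 6.18 ± 0.36, 4.75 ± 0.13 and 8.56 ± 0.29 at 1.5, 13.5 and 25.5 h (SD, n = 3 each). The difference between the last harvest and the one before was 3.81 ± 0.22, the largest change with time of any of the 31 genes in control tissue. In hypocotyls the gene was lower: 3.74, 3.83 and 3.62 under ethylene at 25.5 h, against 5.46, 5.01 and 4.36 in control, a change of -1.22 ± 0.22. Shaded hypocotyls read 4.17, 4.57 and 4.53 then and overlapped the control (change -0.52, adjusted p = 0.105).

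TBL24 rose in shade at 13.5 h in both organs. It averaged 7.62 ± 0.24 in shaded hypocotyls and 6.74 ± 0.36 in control hypocotyls (change 0.89 ± 0.16, and 1.30 without the marked arrays), and 6.39 ± 0.15 in shaded cotyledons and 5.70 ± 0.31 in control cotyledons (change 0.69 ± 0.16, SD over n = 3 arrays for each mean). The cotyledon call was lost without control replicate 2 (0.53, adjusted p = 0.109). TBL25 moved little, by -0.49 ± 0.12 in ethylene hypocotyls at 25.5 h and by 0.36 ± 0.12 in shaded ones at 13.5 h. This shade call ended without any control replicate or without shade replicate 1 or 2 (0.29 to 0.38, adjusted p between 0.068 and 0.234), without the marked arrays (0.32, adjusted p = 0.323) and with reference centring (0.31, adjusted p = 0.146).

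TBL23 had 2 calls, a fall in shade at the first harvest and a rise under ethylene at the last. Shaded hypocotyls at 1.5 h averaged 4.86 ± 0.22, against 5.66 ± 0.08 in control (change -0.80 ± 0.19, adjusted p = 0.0043), and ethylene hypocotyls at 25.5 h averaged 5.33 ± 0.20, against 4.57 ± 0.48 in control (change 0.76 ± 0.19, adjusted p = 0.00248). Without the marked arrays the early fall kept its size, -0.89, but not its call (adjusted p = 0.106). Under quantile normalization it was smaller, -0.57, and not called (adjusted p = 0.0602).

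Each of the 6 xylan acetyltransferase genes was called at least once, with no shared direction. Under ethylene 2 of the 6 rose in the hypocotyl at 25.5 h and none was called at 1.5 or 13.5 h. In shade 1 rose and 1 fell at 1.5 h, 2 rose at 13.5 h, and 1 rose and 1 fell at 25.5 h. None was called in the cotyledon. The backgrounds of the single comparisons are those given above, and the share of all features called at least once was not computed.

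TBL30 averaged 5.91 ± 0.13 in shaded hypocotyls at 13.5 h, against 4.65 ± 0.38 in control hypocotyls, a change of 1.26 ± 0.18 (adjusted p = 3.42e-06). At 25.5 h its level was 4.76 ± 0.07 in shade and 4.94 ± 0.13 in control, so the rise stood at the night harvest. TBL28 lies next to TBL30 on the chromosome, with no gene of RefSeq between them, and their 18 group means correlated at 0.85. These means span both organs, and both genes were higher in control hypocotyls than in control cotyledons at every harvest. The correlation within each organ was not computed. Yet the treatment responses differed: TBL28 changed by 0.01 in shaded hypocotyls at 13.5 h and fell at 25.5 h, to 7.34 ± 0.23 in shade, against 8.16 ± 0.11 in control (change -0.82 ± 0.17, adjusted p = 0.000273).

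TBL32 averaged 6.96 ± 0.09 in ethylene hypocotyls at 25.5 h, against 5.95 ± 0.31 in control hypocotyls, a change of 1.01 ± 0.18. The control had been 7.24 ± 0.21 at 1.5 h, so treated arrays stayed nearer to the early level. TBL34 rose in shade at 1.5 h (0.77 ± 0.18, and 0.94 without the marked arrays) and 25.5 h (0.68 ± 0.18) and under ethylene at 25.5 h (0.61 ± 0.18, with ethylene replicate 3 inside the control range). The ethylene call was also lost with reference centring (0.45, adjusted p = 0.0692). Its late calls were lost without control replicate 2 (0.56 in shade and 0.49 under ethylene, adjusted p = 0.0539 and 0.0782), shade replicate 3 (0.55, adjusted p = 0.0639), or ethylene replicate 1 or 2 (0.53 and 0.51, adjusted p = 0.0567 and 0.0708).

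TBL33 rose by 0.84 ± 0.23 in shaded hypocotyls at 13.5 h, a call lost without control replicate 1 (0.71, adjusted p = 0.0829) and without the marked arrays (0.75, adjusted p = 0.196). TBL31 is dim, at 1.80 to 3.27 over all arrays. It changed by -0.75 ± 0.23 in shaded hypocotyls at 1.5 h, a call lost without control replicate 1 or 3 or shade replicate 1 or 3 (-0.78 to -0.65, adjusted p between 0.0525 and 0.102), without the marked arrays (-0.73, adjusted p = 0.3), with reference centring (-0.65, adjusted p = 0.0662) and under quantile normalization (-0.58, adjusted p = 0.0961).

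Among TBL genes with no role given here, TBL41 had the largest change under ethylene. TBL18, TBL36 and TBL39, like TBL41, were called only under ethylene. TBL41 read 6.41, 6.70 and 6.59 in ethylene hypocotyls at 1.5 h, against 4.85, 4.81 and 4.40 in control hypocotyls. At 13.5 h it read 5.29, 5.35 and 5.16 under ethylene, against 2.89, 2.73 and 3.65 in control. At 25.5 h it read 6.88, 6.99 and 7.40 under ethylene, against 3.78, 3.35 and 3.81 in control. All 9 ethylene arrays thus exceeded all 9 control arrays of the hypocotyl, at whatever time. The changes were 1.88, 2.17 and 3.44 ± 0.22 (3.68-, 4.52- and 10.9-fold, adjusted p = 1.07e-07, 1.05e-09 and 9.23e-16).

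Shaded hypocotyls read 4.52, 3.98 and 4.45 at 1.5 h, 2.40, 3.10 and 3.02 at 13.5 h and 3.55, 3.40 and 3.91 at 25.5 h for TBL41. They overlapped the control arrays at every time, with changes of -0.37, -0.25 and -0.03 that were not called (the last with a 95% interval of -0.48 to 0.42). In cotyledons ethylene arrays read 5.00, 5.32 and 5.47 at 25.5 h, against 3.75, 4.13 and 3.81 in control cotyledons, a change of 1.36 ± 0.22 (adjusted p = 3.94e-05). At 1.5 and 13.5 h the ethylene changes there were 0.71 and 0.70, with adjusted p of 0.145 and 0.114.

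TBL37 rose under both treatments and in both organs, though at different times. Ethylene hypocotyls read 9.93, 9.94 and 9.74 and shaded ones 9.82, 10.42 and 10.52 at 25.5 h, against 8.68, 8.50 and 8.59 in control hypocotyls. The lowest treated array, at 9.74, lay above the highest control, at 8.68, with changes of 1.28 ± 0.17 and 1.66 ± 0.17. At 13.5 h it rose in shaded hypocotyls by 1.06, in ethylene cotyledons by 0.94 and in shaded cotyledons by 1.21. No call was made in cotyledons at 25.5 h.

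TBL45 fell under ethylene in cotyledons, where no shade change was called. Ethylene and shade moved it in opposite directions in hypocotyls at 13.5 h only. Ethylene cotyledons read 8.75, 8.49 and 8.60 at 1.5 h, against 9.14, 9.12 and 9.17 in control cotyledons. They read 8.84, 8.98 and 8.76 at 13.5 h, against 9.82, 9.81 and 9.49 in control, and 8.79, 8.64 and 8.45 at 25.5 h, against 9.74, 9.71 and 9.81 in control. The groups were apart at each time, with changes of -0.53, -0.84 and -1.13 ± 0.13. The first of these lost its call without any control replicate or without ethylene replicate 2 or 3 (-0.54 to -0.47, adjusted p between 0.0767 and 0.178).

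In hypocotyls at 13.5 h TBL45 read 9.73, 9.84 and 9.47 under ethylene and 10.97, 10.86 and 10.67 in shade, against 10.57, 10.51 and 10.20 in control. Ethylene arrays were all below and shaded arrays all above the control, by -0.75 ± 0.13 and 0.41 ± 0.13. At 25.5 h shade gave a further rise of 0.52 ± 0.13, which missed the threshold when centred on the reference genes (0.37, adjusted p = 0.0646), and the ethylene change was 0.11. The 13.5 h shade call was lost without control replicate 3 (0.29, adjusted p = 0.23), shade replicate 1 (0.34, adjusted p = 0.193) or shade replicate 2 (0.39, adjusted p = 0.101), without the marked arrays (0.33, adjusted p = 0.351) and with reference centring (0.35, adjusted p = 0.113).

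TBL39, TBL19 and TBL36 had the next largest changes, all in the hypocotyl. TBL39 averaged 7.13 ± 0.30 in ethylene hypocotyls at 25.5 h, against 5.47 ± 0.30 in control (change 1.66 ± 0.28, adjusted p = 6.45e-06). The control had been 8.91 ± 0.20 at 1.5 h, when ethylene hypocotyls averaged 7.96 ± 0.09 (change -0.96 ± 0.28, adjusted p = 0.044). This early fall lost its call without any array compared other than control replicate 2 (-1.0 to -0.87, adjusted p between 0.083 and 0.199) and without the marked arrays (-0.73, adjusted p = 0.38).

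TBL19 averaged 5.67 ± 0.07 in ethylene hypocotyls at 25.5 h, against 4.27 ± 0.25 in control (change 1.40 ± 0.28), and 5.48 ± 0.49 in shaded hypocotyls at 13.5 h, against 4.18 ± 0.53 in control (change 1.31 ± 0.28, and 1.69 without the marked arrays). TBL36 fell in ethylene hypocotyls, by -1.15 at 13.5 h and -1.51 at 25.5 h, where it averaged 4.86 ± 0.64, against 6.37 ± 0.16 in control. The 13.5 h groups overlapped, and that call was lost without control replicate 2 (-0.86, adjusted p = 0.0711) or ethylene replicate 3 (-0.91, adjusted p = 0.0696). Without the marked arrays it was -1.63 (adjusted p = 0.00707).

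TBL16, TBL18, TBL38 and TBL42 complete the called genes. In ethylene hypocotyls at 25.5 h the changes were 0.52 for TBL16, 0.67 for TBL18 and 0.63 for TBL38. With reference centring TBL16 and TBL38 were not called (0.35 and 0.47, adjusted p = 0.053 and 0.118), nor was TBL38 under quantile normalization (0.59, adjusted p = 0.0739). TBL18 also rose by 0.67 at 13.5 h, a call lost without control or ethylene replicate 3 (0.56 and 0.54, adjusted p = 0.0512 and 0.0705) and without the marked arrays (0.77, adjusted p = 0.0583). The TBL38 call needed control replicates 2 and 3 and ethylene replicates 1 and 2, and was lost without any of them (0.55 to 0.63, adjusted p between 0.086 and 0.152).

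In shade TBL16 fell by 0.43 in hypocotyls at 1.5 h, TBL42 rose by 0.61 in hypocotyls at 25.5 h, and TBL38 rose by 0.78 in cotyledons at 13.5 h with overlapping groups. All 3 calls rested on individual arrays, and TBL42 is dim, at 1.83 to 3.38 over all arrays. TBL16 lost it without control replicate 1 or shade replicate 3 (-0.35 and -0.36, adjusted p = 0.13 and 0.12), under quantile normalization (-0.29, adjusted p = 0.159), with reference centring (-0.34, adjusted p = 0.123) and without the marked arrays (-0.39, adjusted p = 0.319). TBL42 lost it without any array other than shade replicate 2 (0.48 to 0.63, adjusted p between 0.0833 and 0.192), with reference centring (0.47, adjusted p = 0.136), without the marked arrays (0.61, adjusted p = 0.0549) and adjusted over all features of the array (0.61, adjusted p = 0.0516). TBL38 lost it without control replicate 1 or 2 or shade replicate 1 or 3 (0.57 to 0.79, adjusted p between 0.0999 and 0.241) and under quantile normalization (0.74, adjusted p = 0.0652). Shade replicate 3 is the cotyledon array named above as high in root genes. TBL15, TBL20 and TBL43, with CSLA01, were called in none of the 12 comparisons. Their changes ran from -0.55 to 0.35.

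**Figure D3:**
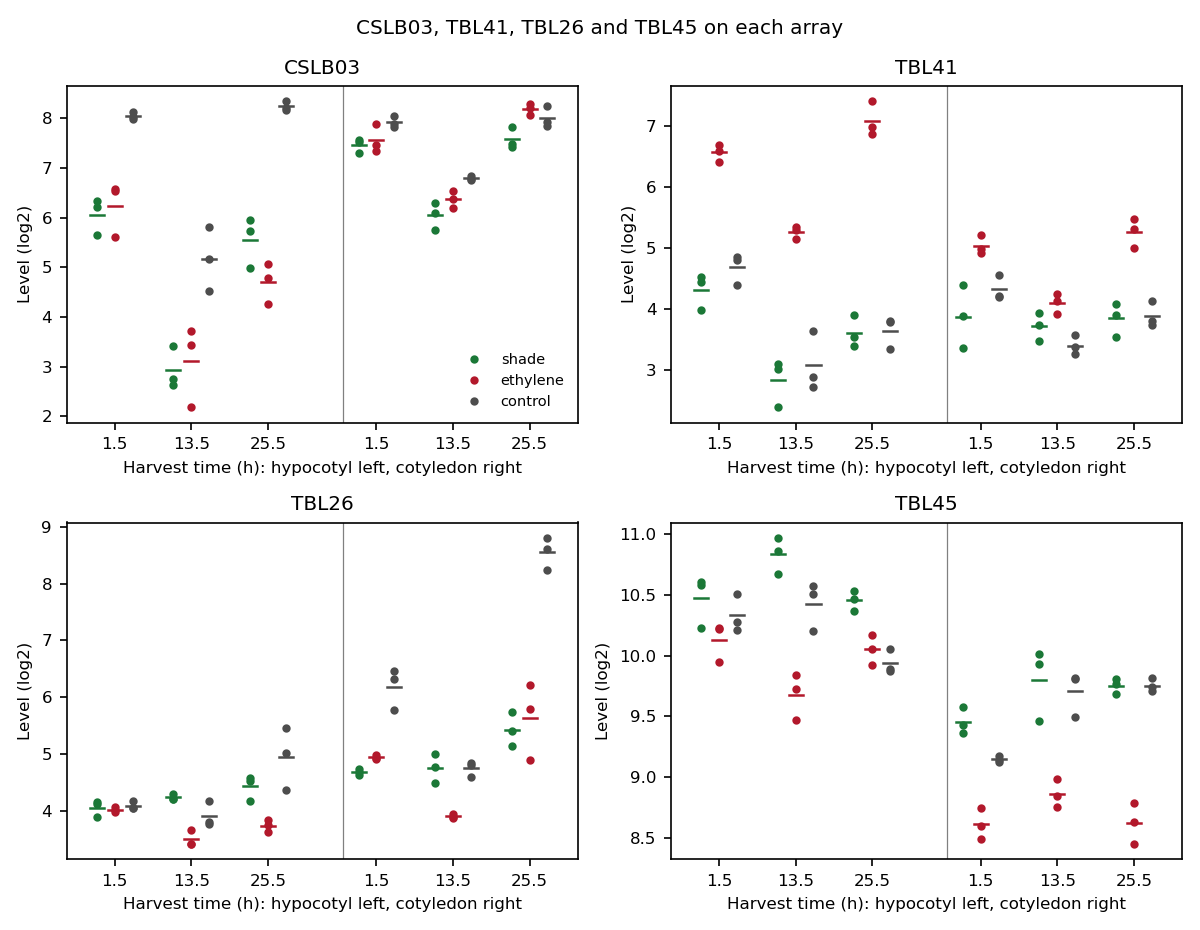
Level of CSLB03, TBL41, TBL26 and TBL45 (log2, vertical axis) on each of the 54 arrays by harvest time (hours, horizontal axis), with hypocotyls left and cotyledons right of the grey line, dots for arrays and bars for means of 3. CSLB03 is below control in every treated hypocotyl group, TBL41 is raised by ethylene (7.09 against 3.65 in control hypocotyls at 25.5 h), TBL26 peaks in control cotyledons at 25.5 h (8.56), and TBL45 is lowest in ethylene cotyledons.

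CSLB03 fell in all 6 hypocotyl comparisons and was the strongest fall of the list in each of them. It read 6.57, 5.62 and 6.54 under ethylene and 6.21, 5.65 and 6.33 in shade at 1.5 h, against 7.99, 8.12 and 8.02 in control hypocotyls. At 13.5 h it read 3.44, 3.72 and 2.18 under ethylene and 2.76, 3.43 and 2.63 in shade, against 5.16, 5.82 and 4.53 in control. At 25.5 h it read 4.25, 5.07 and 4.78 under ethylene and 5.96, 5.73 and 4.99 in shade, against 8.35, 8.17 and 8.22 in control.

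In hypocotyls no treated array of CSLB03 reached its own control group at any harvest. The changes were -1.80, -2.06 and -3.54 ± 0.29 under ethylene (adjusted p = 4.95e-05, 1.11e-06 and 5.76e-13) and -1.98, -2.24 and -2.68 ± 0.29 in shade (adjusted p = 8.91e-06, 4.14e-07 and 1.82e-09). In linear terms the 25.5 h levels were 11.7-fold lower under ethylene and 6.43-fold lower in shade. Without the marked arrays the 1.5 h changes were -1.88 and -2.06 and the 13.5 h changes -2.87 and -2.89, all called. The control arrays marked at 1.5 h, replicates 1 and 3, did not differ from replicate 2 in this gene by more than 0.13. At 13.5 h the marked control replicates 1 and 3 read 5.16 and 4.53, below the 5.82 of replicate 2.

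In cotyledons CSLB03 was not called, with changes of -0.36, -0.42 and 0.18 under ethylene and -0.46, -0.75 and -0.43 in shade at 1.5, 13.5 and 25.5 h. Ethylene cotyledons read 8.21, 8.29 and 8.07 at 25.5 h, against 7.92, 7.86 and 8.25 in control cotyledons. The controls dipped in the night in both organs, to 5.17 ± 0.65 in hypocotyls and 6.80 ± 0.04 in cotyledons at 13.5 h. The hypocotyl control returned to 8.24 ± 0.09 at 25.5 h, whereas ethylene hypocotyls reached 4.70 ± 0.41 and shaded ones 5.56 ± 0.51.

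CSLD2 rose in ethylene hypocotyls at 25.5 h, to 6.55 ± 0.06, against 5.63 ± 0.44 in control (change 0.91 ± 0.23, adjusted p = 0.00217), and lost the call narrowly without control replicate 1 (0.66, adjusted p = 0.0508). The root hair genes EXPA7 and EXPA18 averaged 3.04 to 4.00 on the ethylene arrays of that harvest, against 2.55 to 2.92 on the control arrays. Their part in the CSLD2 change was not tested. Photosynthesis genes were lower in the same ethylene arrays, as given above, and their part in the ethylene changes of the other wall genes was not tested either.

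Most TBL genes had a higher level in the hypocotyl than in the cotyledon early on. In control tissue at 1.5 h, 20 of the 31 genes were higher and 2 lower in the hypocotyl than in the cotyledon, where 42.6% of all features differed, 27.0% being higher and 15.6% lower. At 13.5 h the counts were 11 higher and 2 lower (15.6% and 14.8% of all features) and at 25.5 h 9 higher and 4 lower (16.0% and 14.5%), with 30.5% of features called at each time. Of the 23 TBL genes, 17 were higher in the hypocotyl at 1.5 h, beside the 27.0% of all features. Reference centring gave 14 higher and 3 lower at 1.5 h, beside 2813 higher and 5674 lower among all features. The median of all features was then -0.22 in place of 0.08. Without the marked arrays, which leaves 1 control hypocotyl array at 1.5 h, the median of all features was 0.07 at that time. The 3 photosynthesis genes, which should favour green cotyledons, averaged 10.30 to 10.53 in these hypocotyl controls and 10.86 to 10.95 in the cotyledon controls.

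TBL19, TBL28, TBL30, TBL38, TBL36, TBL24, TBL25, TBL37 and TBL16 were higher in control hypocotyls at all 3 times. The single times had 27.0%, 15.6% and 16.0% of all features higher, and the share higher at all 3 times was not computed. TBL28 differed by 2.03, 1.44 and 2.39, TBL19 by 2.98, 1.74 and 1.64, and TBL38 by 1.55, 2.50 and 1.66 at 1.5, 13.5 and 25.5 h. TBL19 was dim in cotyledons, at 1.84 to 3.09 on all their arrays. TBL26 was lower in the hypocotyl at all 3 times, by -2.10, -0.84 and -3.61. CSLC04 was higher in the hypocotyl by 1.72 and 1.30 at the first 2 harvests and by -0.02 at 25.5 h, when the organs overlapped. CSLA03 and CSLC12 were lower in the hypocotyl at 25.5 h, by -1.22 and -0.77, and CSLB03 at 13.5 h, by -1.63.

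**Figure D4:**
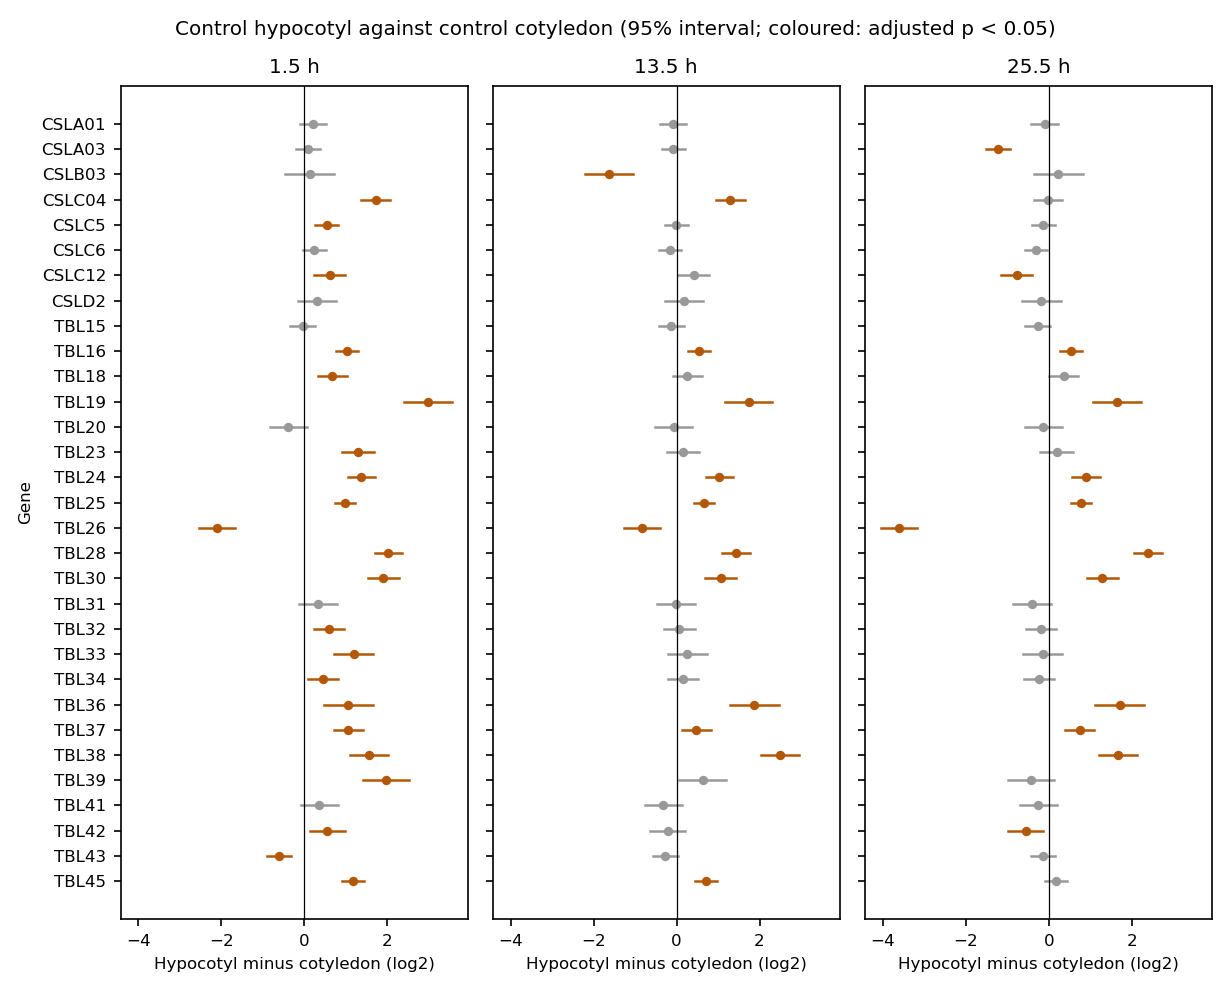
Difference between control hypocotyl and control cotyledon (log2, horizontal axis) for each of the 31 genes (vertical axis) at 1.5, 13.5 and 25.5 h, with 95% intervals and coloured where the adjusted p was below 0.05. Most coloured points lie right of 0 (20, 11 and 9 genes), and TBL26 lies left of 0 at each time.

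The hypocotyl controls also declined with time. Compared with 1.5 h, 1 gene was higher and 21 were lower at 13.5 h, and 2 were higher and 21 lower at 25.5 h. Of all features 31.2% and 31.9% were called, 10.5% and 10.1% as higher and 20.7% and 21.8% as lower. TBL39 fell most by 25.5 h, by -3.45 ± 0.28, followed by TBL19 (-1.38), TBL32 (-1.29), CSLC12 (-1.21) and CSLC04 (-1.12). The counts depended on scaling in part. Centred on the reference genes, 6 genes were higher and 11 lower at 25.5 h, beside 3949 higher and 2001 lower among all features. The median of all features was then 0.15 in place of -0.11. Leaving out the marked arrays kept 1 control hypocotyl array at 1.5 h and at 13.5 h, too few to count calls. The median of all features relative to 1.5 h was then -0.09 at 13.5 h and -0.09 at 25.5 h. The root hair genes fell over the same time, with means of 2.55 to 2.92 at 25.5 h, against 5.63 to 7.45 at 1.5 h, and their part in the decline was not tested.

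Between 13.5 and 25.5 h hypocotyl controls showed 5 rises and 3 falls (background 22.2%), led by CSLB03 at 3.07. In control cotyledons, 1 gene was higher and 7 were lower at 13.5 h than at 1.5 h (background 18.4%, 9.48% as higher and 8.96% as lower). At 25.5 h 4 were higher and 2 lower than at 1.5 h (background 17.0%, 7.08% and 9.93%). Centred on the reference genes this was 4 and 1, beside 1378 higher and 1483 lower among all features. Cotyledons at 25.5 h had 8 genes higher and 1 lower than at 13.5 h (background 27.5%, 11.3% as higher and 16.2% as lower). Reference centring moved the median of all features in control cotyledons to -0.14 at 13.5 h relative to 1.5 h. It gave 1 gene higher and 11 lower there, beside 1059 and 2599 among all features. At 25.5 h relative to 13.5 h the median was 0.205. The counts were then 14 higher and 1 lower, beside 3780 and 1768. TBL26 led these rises, followed by CSLA03 at 1.38 and CSLB03 at 1.21.

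The organs were compared directly by testing the hypocotyl response minus the cotyledon response. At 25.5 h 15 of 31 genes differed under ethylene (14.8% of all features) and 8 in shade (5.63%). At 13.5 h 4 differed under ethylene (3.12%) and 4 in shade (3.91%), and at 1.5 h none under ethylene (0.137%) and 4 in shade (2.16%). The 4 differences in shade at 1.5 h were 1.47 for TBL26, 1.11 for TBL34, -1.21 for TBL23 and -1.53 for CSLB03. Without the marked arrays, which leaves 1 control hypocotyl array, they were 1.38, 1.27, -1.30 and -1.60. At 13.5 h in shade 3 differences were positive and 1 was negative (2.13% and 1.79% of all features). Centred on the reference genes these counts became 3 and 2, beside 227 and 477 among all features. At 1.5 h under ethylene, CSLB03 had an organ difference of -1.44 and TBL41 of 1.17, neither called.

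All 4 CSLC genes rose more in the hypocotyl under ethylene at 25.5 h, with differences of 1.85 for CSLC04, 1.37 for CSLC12, 0.92 for CSLC5 and 0.88 for CSLC6. In shade the first 3 did so at 25.5 h, with 1.08, 0.88 and 0.84. CSLB03 fell more in the hypocotyl in 5 of the 6 organ tests. TBL26 had positive differences, 1.71 under ethylene and 2.61 in shade at 25.5 h, because its fall was larger in the cotyledon.

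**Figure D5:**
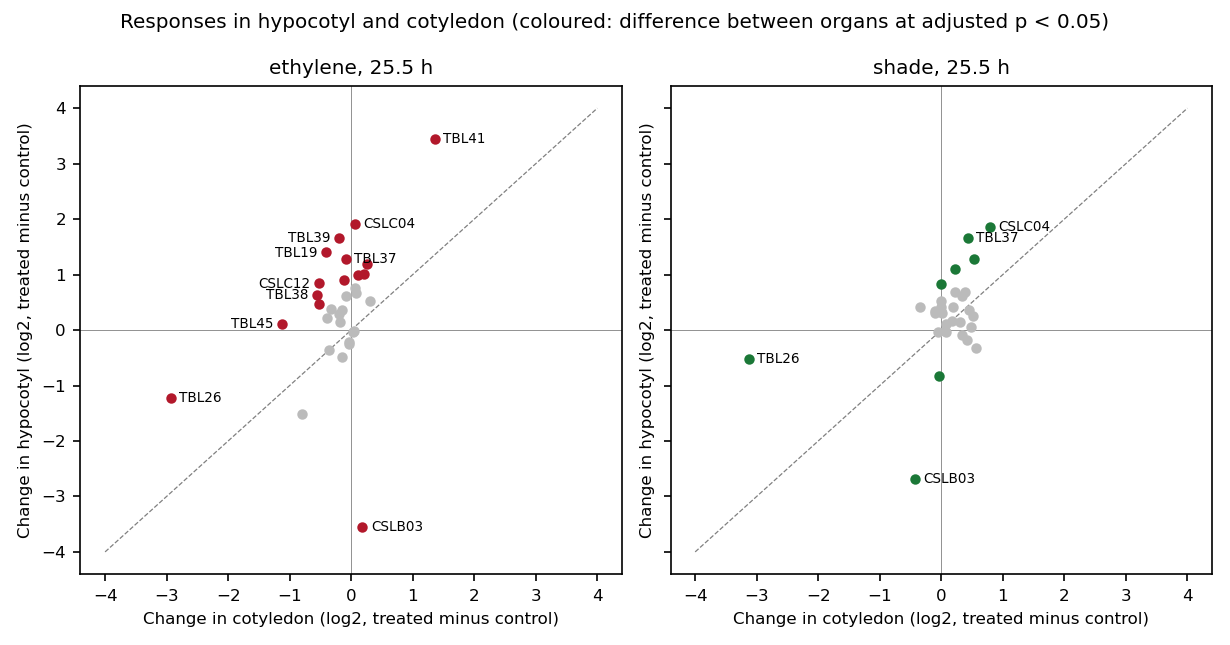
Change in the hypocotyl (log2, vertical axis) against change in the cotyledon (log2, horizontal axis) of the 31 genes at 25.5 h, under ethylene on the left and in shade on the right. Points on the dashed line changed alike in both organs, and coloured points differed between organs at an adjusted p below 0.05 (15 under ethylene, 8 in shade). CSLB03 lies far below the line and TBL41 and TBL26 lie above it under ethylene.

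Shade and ethylene were also set against each other without the control. In hypocotyls 10, 10 and 14 genes differed at 1.5, 13.5 and 25.5 h (16.8%, 14.7% and 20.0% of all features), 5, 8 and 6 of them higher in shade. Of all features 4.11%, 8.21% and 9.85% were higher in shade there, and 12.7%, 6.53% and 10.2% lower. In cotyledons 6, 5 and 9 differed (2.21%, 4.80% and 12.4%), 5, 5 and 8 of them higher in shade. The shares of all features were 1.22%, 2.86% and 6.34% higher and 0.988%, 1.95% and 6.03% lower. Quantile normalization gave 7 higher and 3 lower in hypocotyls at 1.5 h, as did reference centring. Among all features these gave 1298 higher and 969 lower, and 961 higher and 1203 lower.

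TBL41 was lower in shade in 5 of the 6 comparisons, by -2.25, -2.43 and -3.47 in hypocotyls and by -1.16 and -1.41 in cotyledons at 1.5 and 25.5 h. TBL45 was higher in shade in 5, by 1.15 and 0.40 in hypocotyls at 13.5 and 25.5 h and by 0.84, 0.94 and 1.13 in cotyledons. CSLA03 was also higher in shade in 5, by 0.66 and 0.81 in hypocotyls at 1.5 and 25.5 h and by 0.79, 0.73 and 1.05 in cotyledons. The ethylene and shade changes given above share their control arrays. For the CSLC genes at 25.5 h in the hypocotyl no difference between shade and ethylene was called. The mean of CSLC04 was 11.07 in shade and 11.12 under ethylene, a difference of -0.05 with a 95% interval of -0.40 to 0.29.

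Few other genes of the listed wall pathways could be matched by symbol to a feature with a gene in the platform annotation, which gives genes for 17504 of the 38408 features. Of 18 genes listed for cellulose synthesis, 1 was matched: COB, which guides cellulose deposition in elongating cells. It rose in ethylene hypocotyls by 0.57 ± 0.12 at 13.5 h and 0.77 ± 0.12 at 25.5 h and in shaded ones by 0.39 ± 0.12 at 13.5 h, and was higher in control hypocotyls than in control cotyledons at all times. Of 24 genes listed for xylan, 3 were matched. GUT2, a xylan backbone gene, rose by 0.85 in shaded hypocotyls at 13.5 h. IRX15-L, which acts in xylan deposition, rose by 0.76 in the same samples and changed by -0.98 in ethylene hypocotyls at 25.5 h, and IRX15 was called in no treatment comparison. None of the listed xyloglucan, mannan, pectin, non-TBL acetylation or secondary wall regulator genes was matched.

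AT5G06700, the TRICHOME BIREFRINGENCE gene for which the TBL family is named, lies outside the naming rule. It rose in hypocotyls at 13.5 and 25.5 h, by 0.70 and 0.76 under ethylene and by 0.58 and 0.67 in shade. AT2G31110, for which RefSeq gives the synonym TBL40, rose by 1.03 in ethylene hypocotyls at 25.5 h and by 0.82 and 1.00 in shaded ones at 13.5 and 25.5 h. In ethylene cotyledons at 25.5 h it changed by -1.02 (adjusted p = 0.00507).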

How the data were processed

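RNA of 54 samples was hybridised to Affymetrix Arabidopsis Gene 1.1 ST arrays. Each deposited value is a log2 level. The submitters' processing notes name RMA, Affymetrix Expression Console 1.4 and Transcriptome Analysis Console 3.0. The probes' genome build is not given in the sources used here. RMA puts all arrays on a shared scale, so a shift common to most genes of a tissue is not seen.

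One model of 18 group means without covariates was fitted (limma 3.58.1, R 4.3.3) over the 17504 features of 38408 to which the platform annotation gives a gene. P-values were adjusted with Benjamini-Hochberg within each comparison, with a threshold of 0.05. The pipeline was tested on simulated data. Arrays have no read depth, and 3 arrays a group limit the precision. The arrays of a group come from independent experiments, per the labels, but replicate numbers are not said to mark an experiment, and the main model has no replicate block. No arrays were identical.

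Members, gene lists, marker lists and the grouping by role were chosen with earlier results of these data known. Named were the 3 largest rises and 3 largest falls of each treatment comparison, and values per array were planned for the strongest members (CSLB03, CSLC04, TBL41, TBL26) and those called most often. Other per-array values and comparisons named, CSLC5, CSLC6, CSLC12, CSLA03 and TBL37 among them, were chosen after the values were seen. Each fit was repeated with quantile normalization within tissue, centring on 10 reference genes, without the dimmest features (a share of 0.25), with all features, with the compared arrays alone, with a replicate block, without each array, and without the hypocotyl arrays more than 1.5 above the tissue median in root genes. Leaving out 2 further arrays was added after seeing the data.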

Additional observations from a re-analysis of the deposited data

Results flagged for a closer look

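A difference between the organs in the response to the same treatment was called in 35 tests, each a limma interaction with its adjusted p below 0.05. The values are hypocotyl response minus cotyledon response, on the log2 scale.

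Under ethylene at 13.5 h the difference was 1.49 for CSLC04, 1.48 for TBL41, 0.94 for CSLC5 and -1.63 for CSLB03. TBL41 rose in the hypocotyl by 2.17 and had a change of 0.70 in the cotyledon that was not called. Without the arrays high in root genes the differences were 1.82 for TBL41, 1.27 for CSLC5 and -2.45 for CSLB03.

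Under ethylene at 25.5 h the xyloglucan genes differed by 1.85 (CSLC04), 1.37 (CSLC12), 0.92 (CSLC5) and 0.88 (CSLC6), and the other CSL genes by 1.00 (CSLA03), 1.02 (CSLD2) and -3.73 (CSLB03). Among TBL genes the differences were 2.08 (TBL41), 1.86 (TBL39), 1.82 (TBL19), 1.71 (TBL26), 1.37 (TBL37), 1.24 (TBL45), 1.19 (TBL38) and 0.80 (TBL32). TBL19 was dim in cotyledons, at 1.84 to 3.09 on all their arrays, which limits how far a fall there could show. CSLA03 was called in both organs in opposite directions, with changes of 0.48 in the hypocotyl and -0.53 in the cotyledon. TBL45 had a change of 0.11 in the hypocotyl and fell by 1.13 in the cotyledon.

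In shade at 1.5 h the difference was 1.47 for TBL26, 1.11 for TBL34, -1.21 for TBL23 and -1.53 for CSLB03. Without the arrays high in root genes these values were 1.38, 1.27, -1.30 and -1.60, with adjusted p of 0.104, 0.0511, 0.0918 and 0.14. At 13.5 h it was 1.49 for TBL19, 0.97 for TBL30, 0.78 for CSLC5 and -1.49 for CSLB03. Without the same arrays it was 1.87 for TBL19, 1.06 for CSLC5 and -2.14 for CSLB03, and 0.87 for TBL30, whose call was lost (adjusted p = 0.0854).

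In shade at 25.5 h it was 2.61 for TBL26, 1.24 for TBL37, 1.08 for CSLC04, 0.88 for CSLC12, 0.84 for CSLC5, 0.76 for CSLA03, -0.78 for TBL28 and -2.25 for CSLB03.

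With reference centring the calls of CSLB03 in shade at 1.5 h (-1.40, adjusted p = 0.0971) and of CSLC12 in shade at 25.5 h (0.82, adjusted p = 0.0672) were lost, as was that of CSLB03 under quantile normalization (-1.36, adjusted p = 0.0964).

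Leaving out a single array ended 12 of these calls, with the direction kept. Under ethylene this was CSLB03 at 13.5 h (2 arrays, hypocotyl control replicate 2 and ethylene replicate 3, -1.31 and -1.17, adjusted p = 0.0861 and 0.119), CSLD2 at 25.5 h (4 arrays, 0.77 to 0.99, adjusted p up to 0.131) and TBL32 at 25.5 h (6 arrays, 0.61 to 0.76, adjusted p up to 0.129). In shade at 1.5 h it was CSLB03 (11 of the 12 arrays, all but hypocotyl shade replicate 3, -1.60 to -1.32, adjusted p up to 0.108) and TBL34 (cotyledon shade replicate 3, 0.99, adjusted p = 0.0523). In shade at 13.5 h it was CSLB03 (9 arrays, -1.50 to -1.16, adjusted p up to 0.121), CSLC5 (3 arrays, 0.64 to 0.68, adjusted p up to 0.0583), TBL19 (6 arrays, 1.24 to 1.40, adjusted p up to 0.0949) and TBL30 (5 arrays, 0.76 to 0.92, adjusted p up to 0.0823). In shade at 25.5 h it was CSLA03 (3 arrays, 0.65 to 0.68, adjusted p up to 0.0627), CSLC12 (7 arrays, 0.67 to 0.92, adjusted p up to 0.169) and TBL28 (9 arrays, -0.82 to -0.69, adjusted p up to 0.122). Groups of 3 arrays are too small for a test of a single distant array.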

How the results depend on the processing

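Fitting the compared groups alone, with fewer samples to estimate the spread, moved 4 counts by more than 1.5 times: calls fell to 18, against 29, in shaded hypocotyls, to 5, against 9, in ethylene cotyledons, to 3, against 8, in shaded cotyledons, and to 35, against 54, between shade and ethylene. Leaving out each array in turn gave 29 to 32 calls in ethylene hypocotyls (31 with all arrays), 26 to 30 in shaded hypocotyls, 8 to 10 in ethylene cotyledons, 6 to 9 in shaded cotyledons, 46 to 50 between control organs (48), 72 to 79 over time in controls (76), 32 to 38 for organ differences (35) and 49 to 55 between shade and ethylene. No value of the 112 named treatment and organ calls reversed its sign. Of these, 61 kept the call under every alternative, and 36 lost it in at least 1 of the 54 fits without an array. Calls were lost by 6 under quantile normalization, 13 with reference centring, 4 with all features, 16 without the arrays high in root genes, 15 without 2 further arrays, 36 with the compared arrays alone, and 0 without the dimmest features. A replicate block changed none of the 112 calls, and gave counts of 31, 29, 10, 8, 48, 76, 37 and 54 in the order above. Deviations of same-numbered treated and control arrays correlated at -0.19 to 0.29, above 0.1 in 11 of 36 pairs, and the numbers were not taken as pairs, as not every pair exceeded 0.1. Yet 42 of 54 arrays correlated best with their own number within the tissue, a hint that the numbers may mark shared experiments. The mean over several features of a gene was not run, since each gene had 1 feature. The 2 dimmest genes, CSLA01 and TBL15, have the least signal over background.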
